A study of Homo sapiens with 12 samples.

Results

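Mitochondrial ribosomal proteins are encoded in the nucleus by genes named MRPL and MRPS, and 76 of the 16299 genes in the expression table are described here. Members were the protein-coding genes whose symbol begins with MRPL or MRPS followed by a digit, a rule that uses no measured value. The annotation holds 78 such genes, and MRPS24 and MRPS28 were not analysed here. All 76 passed the filter on low values, which kept 15794 genes with at least 1 RPKM (reads per kilobase of transcript, scaled to sequencing depth) in at least 2 libraries. Poly-A RNA was sequenced from 2 established human pancreatic ductal adenocarcinoma lines, BXPC3 and PANC1, each embedded in a collagen hydrogel, in 5% GelMA or in 7.5% GelMA. GelMA is gelatin methacryloyl, a gelatin carrying methacryloyl groups that let it be cross-linked into a gel. The 6 groups, BXPC3 in collagen, in 5% GelMA and in 7.5% GelMA and PANC1 in the same 3 gels, held 2 libraries each. Nothing in the labels says whether both libraries of a group came from separate cultures, so every p-value below reflects library-to-library spread that could be technical.

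The mitochondrial ribosome translates the few messenger RNAs that the mitochondrial genome encodes, all of them for core subunits of oxidative phosphorylation. Its large and small subunits are built on mitochondrially encoded ribosomal RNA, while every protein is made in the cytosol and imported. Some of those proteins descend from bacterial ribosomal proteins, and others were added in the mitochondrial lineage and have no bacterial counterpart.

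By their place in the structure, 51 members belong to the large subunit and 24 to the small one. The large subunit count includes MRPS30 and MRPS18A, which carry small subunit names. MRPS36 is now placed in the oxoglutarate dehydrogenase complex rather than in the ribosome. A bacterial counterpart is known for 44 members, and 32 are mitochondria-specific. The 76 genes lie on 21 chromosomes.

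Depth is unknown, since the deposited log2 RPKM values have nearly the same distribution in every library and keep no totals. The libraries of a group differed by a median of 0.06 to 0.11 log2 over the members, and correlated at 0.9922 to 0.995 over all genes tested. SMAD4, which is deleted in BXPC3, checked the line labels, with levels of -5.92 to -5.35 log2 RPKM in BXPC3 and 3.94 to 4.55 in PANC1. The epithelial keratins KRT8, KRT18 and KRT19 lay between 9.64 and 11.83 log2 RPKM in every library. The epithelial markers KRT7, EPCAM and CDH1 were lower in PANC1 than in BXPC3. In PANC1 they lay at 1.8 to 2.75, 3.71 to 4.91 and 4.2 to 4.86, in that order. CLDN4 was alike in the lines, at 7.07 to 7.58 in PANC1 and 7.25 to 7.68 in BXPC3. Of 4 mesenchymal markers, 3 were higher in PANC1 in collagen, among them VIM, at 11.65 to 11.93 in PANC1. The other, FN1, lay at 2.93 to 3.85 in PANC1 and 4.32 to 5.15 in BXPC3. Of 7 epithelial markers, 3 rose and 0 fell with GelMA in BXPC3 (median 0.09 log2), and 6 rose and 0 fell in PANC1 (median 0.49 log2; limma, Benjamini-Hochberg adjusted p under 0.05). The fibroblast marker COL1A1 rose by 1.66 ± 0.06 log2 (SE) in PANC1 (adjusted p = 2.97e-08) and by 0.20 ± 0.06 in BXPC3 (adjusted p = 0.023). ACTA2 lay at 1.56 to 2.39 log2 RPKM in BXPC3, where its GelMA difference was -0.62 ± 0.21 log2 (adjusted p = 0.0447), and at -0.28 to 0.57 in PANC1, where it did not pass. The immune marker CD14 lay at 3.78 to 4.41 log2 RPKM in BXPC3 and 2.44 to 3.08 in PANC1, and CD3E at most at 1.12. PECAM1 and VWF, endothelial markers, were at most at 1.44 log2 RPKM, and the endothelial marker KDR, which was not tested, ran from -3.59 and -2.2 in PANC1 in collagen to between -1.99 and 0.35 in GelMA. Neither immune marker passed for GelMA in either line, and of the 2 endothelial markers tested 0 passed in BXPC3 and 1, PECAM1, was higher in PANC1. PECAM1 lay at -4.94 to -3.35 log2 RPKM in PANC1, near the floor, and reached 1 RPKM in BXPC3 libraries only. The part of these markers in the results below was not tested.

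In every library of both lines, the median level of the members was above that of all genes tested. The median member had 5.04 log2 RPKM (32.9 RPKM) over the 12 libraries, against 3.96 (15.5 RPKM) for all genes tested. Library medians of the members ran from 4.66 to 4.85 log2 RPKM in BXPC3 and from 5.1 to 5.27 in PANC1, so the lines did not overlap. The median of the protein-coding genes tested was 4.45 or 4.46 in each library, not far below the members in BXPC3. MRPL51 of the large subunit had the highest mean level, 8.36 log2 RPKM. MRPS34, a small subunit protein needed for the stability of that subunit, followed with 8.24, then MRPL41 with 7.70, MRPS16 with 7.62 and MRPL17 with 7.42. The median level was 4.88 log2 RPKM for the large subunit and 5.14 for the small one, with a wide spread inside each (SD of 1.46 and 1.29 log2 over genes).

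At the other end stood MRPL12 with 0.79 log2 RPKM, MRPL38 with 1.47, MRPL46 with 1.75 and MRPS17 with 3.18. In GENCODE 29 these 4 genes share exon bases with another gene on the same strand. The shared portion is 68.2% of exon bases for MRPL12, 37.5% for MRPL38, 27.0% for MRPS17 and 11.3% for MRPL46. Over 10% was shared by 8 members, whose median level was 3.32 log2 RPKM, against 5.05 for the 62 members that share none. This split was chosen after the levels were seen, and the sources used here do not say how reads in shared exons were assigned. The low levels of these members are therefore uncertain, and so are fold changes computed from them. In addition, 34 members have at least 1 annotated pseudogene, to which similar reads could be assigned.

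**Figure D1:**
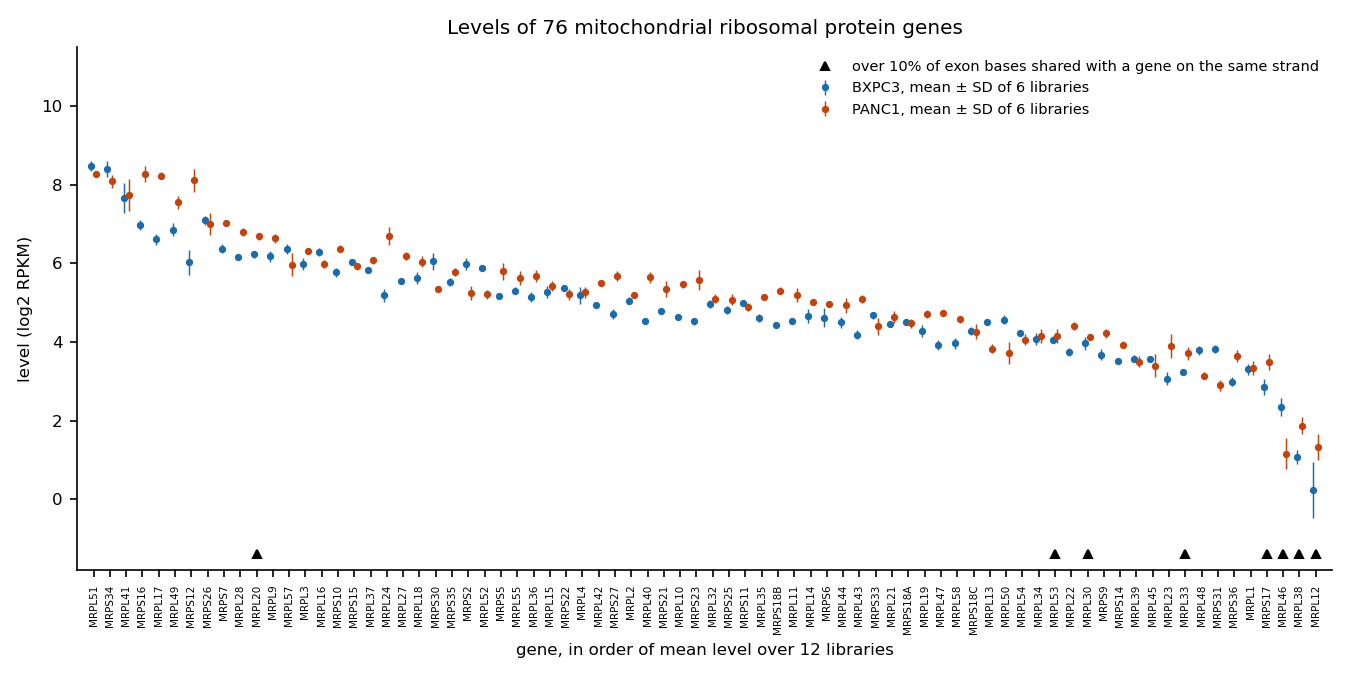
Mean level of each member in log2 RPKM (vertical axis), with genes in order of their mean over 12 libraries; points and bars are the mean and SD of the 6 libraries of BXPC3 (blue) or PANC1 (orange), over the 3 gels. Triangles mark the 8 genes that share over 10% of their exon bases with a gene on the same strand, and the 4 lowest genes, MRPS17, MRPL46, MRPL38 and MRPL12, are among them.

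The promoters were read to see what sequence the members have in common. RefSeq windows on GRCh38.p14, from 250 bases before to 50 bases after a transcription start, were found for 68 members, and 7 short motifs were searched on both strands. Genes with several starts have several windows, and a gene was counted if any window held the letters. The core of the YY1 motif, the 10 letters in capitals below, occurred in 12 member genes, or 17.6%, against 1.5% of all genes with a window and 3.1% of the tested protein-coding genes. In 10 of the 12 it read in the direction of the gene, and in 8 of those 10 its ATG was an annotated start codon, so the letters also spell the beginning of the protein. The windows of 6 such members are shown because the same bases recur shortly after the start, with the motif in capitals.
MRPL38: ggccggagggAAGATGGCGGcgccctggtg
MRPL46: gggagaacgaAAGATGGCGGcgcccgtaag
MRPL50: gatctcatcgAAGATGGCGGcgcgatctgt
MRPS18A: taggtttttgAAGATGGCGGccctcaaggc
MRPS18B: ggcgtacgtcAAGATGGCGGcgtctgtatt
MRPS30: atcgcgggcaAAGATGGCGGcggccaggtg
They lie at chr17:75904859-75904888, chr15:88467361-88467390, chr9:101398576-101398605, chr6:43687763-43687792, chr6:30617853-30617882 and chr5:44808950-44808979, in that order. The motif begins 7 to 24 bases after the start in these 6 genes, on the minus strand in the first 4 and on the plus strand in MRPS18B and MRPS30.

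CCGGAAG, the core bound by GABP and other ETS factors, occurred in 30 of the 68 member genes (44.1%), against 12.2% of all genes with a window and 21.5% of tested protein-coding genes. The windows below are those of members whose responses are described later, 5 that were higher in GelMA in both lines and MRPS23, which was not. The motif, or its reverse complement CTTCCGG, is in capitals.
MRPS12: acggatagcgcCCGGAAGaggctagaagct
MRPS16: cggatcatccgCTTCCGGagtcgaggtttt
MRPS18C: gggctcgcggaCCGGAAGcacgcataaact
MRPS26: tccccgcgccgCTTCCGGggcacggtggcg
MRPS34: tcttccggtgaCTTCCGGccggaccgctga
MRPS23: tggagcagccgCTTCCGGttccggtagcag
These stretches lie at chr19:38930928-38930957 (plus strand), chr10:73252621-73252650 (minus), chr4:83455825-83455854 (plus), chr20:3046004-3046033 (plus), chr16:1773135-1773164 (minus) and chr17:57850040-57850069 (minus). MRPS34 holds 3 matches within 71 bases of its start. The core NRF1 pattern, which leaves 1 base free, was found in 9 members (13.2%), close to the 12.7% of tested protein-coding genes, and the strict NRF1 palindrome in MRPL17 alone.

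A match to such letters is a description and not a binding site. Members with and without the GABP letters had median GelMA effects of 0.10 and 0.20 log2 in BXPC3 and of 0.08 and 0.11 in PANC1. With and without the YY1 letters the medians were 0.11 and 0.19 log2 in BXPC3 and 0.04 and 0.11 in PANC1. The E-box, CACGTG, was found in 13.2% of the members and 12.3% of the tested protein-coding genes. CCAAT was found in 33.8% of the members, against 43.1%, and the TATA box letters TATAAA in 4.4%, against 8.8%.

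In BXPC3, most members were somewhat higher in GelMA than in collagen. The mean of the 4 GelMA libraries exceeded that of the 2 collagen libraries for 65 of 76 members, and the median difference was 0.16 log2, against 0.01 over all genes tested. At a Benjamini-Hochberg adjusted p under 0.05 in limma, 34 members rose (19.4% of all genes tested did), 2 fell (16.7% of all genes) and 40 did not pass. In either direction 36 members (47.4%) were called, beside 36.1% of all genes. When a change of at least 1.2-fold was also required, 16 remained, a count given here without its share of all genes. Without the second BXPC3 collagen library fewer members were called. The share of all genes in that fit is not given, so a general loss of calls cannot be told apart. All 4 GelMA libraries lay above both collagen libraries for 44 members, as they did for 26.8% of all genes, and below both for 4 members, beside 25.2% of all genes. In bulk RNA, a change in the share of cells that express a gene and a change per cell cannot be told apart.

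MRPL41, a mitochondria-specific protein of the large subunit, rose most clearly (chr9:137551199-137552555). It measured 7.27 and 7.11 log2 RPKM in BXPC3 in collagen, 7.79 and 7.82 in 5% GelMA and 8.01 and 7.96 in 7.5% GelMA. Every GelMA library was above both collagen libraries, a difference of 0.71 ± 0.05 log2 (SE), or 1.63-fold (adjusted p = 2.34e-05). MRPS12, which lines the decoding centre of the small subunit (chr19:38930548-38933162), gave 5.62 and 5.59 log2 RPKM in collagen, 6.14 and 6.20 in 5% GelMA and 6.24 and 6.34 in 7.5% GelMA. Its groups did not overlap either, at 0.62 ± 0.05 log2 higher (1.54-fold, adjusted p = 2.83e-05). Of the exon bases of MRPS12, 16.3% overlap SARS2, the mitochondrial seryl-tRNA synthetase gene on the opposite strand, and the strand setting of the counts is not given.

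MRPL4, whose bacterial relative reaches into the peptide exit tunnel, rose by 0.41 ± 0.04 log2 (adjusted p = 9.72e-05), with 4.90 and 4.93 log2 RPKM in collagen against 5.26 to 5.39 in GelMA. A gene on the opposite strand covers 21.4% of its exon bases. MRPS30, a large subunit protein despite its name, had 5.77 log2 RPKM in both collagen libraries, 6.24 in both 5% GelMA libraries and 6.12 and 6.17 in 7.5% GelMA. That is 0.42 ± 0.05 log2 higher in GelMA (adjusted p = 0.000176), with no overlap. MRPS34 rose by 0.36 ± 0.05 log2 (adjusted p = 0.000503), from 8.20 and 8.10 log2 RPKM to between 8.37 and 8.58.

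MRPL12, the stalk protein that recruits translation factors and also binds mitochondrial RNA polymerase, showed the largest difference on the least certain values. It lay at -0.93 and -0.33 log2 RPKM in BXPC3 in collagen, 0.84 and 0.60 in 5% GelMA and 0.80 and 0.46 in 7.5% GelMA. The difference was 1.31 ± 0.28 log2 (adjusted p = 0.00493) on the deposited scale and 0.65 on the scale log2(RPKM + 1) (adjusted p = 0.0101, and 0.00414 to 0.0485 over all alternatives), which weights values near 0 less. The other stalk proteins, MRPL10 and MRPL11, differed by -0.00 and 0.06 log2 and did not pass.

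The 2 members that fell in BXPC3 were MRPL23 and MRPL46. MRPL23, the relative of a bacterial protein at the tunnel exit (chr11:1947278-1984522), measured 3.29 and 3.26 log2 RPKM in collagen and 2.88 to 3.07 in GelMA, without overlap. It was lower by 0.31 ± 0.07 log2, written as -0.31 (adjusted p = 0.00633). MRPL46 of the central protuberance, the crown of the large subunit, went from 2.65 and 2.58 log2 RPKM to between 2.04 and 2.37, at -0.40 ± 0.13 log2 (adjusted p = 0.0425). That call was lost without any 1 of 8 of the 12 libraries, among them both BXPC3 collagen libraries (adjusted p = 0.161 and 0.112), and over the alternatives its adjusted p ran from 0.0161 to 0.161.

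By subunit, 24 of 51 large and 10 of 24 small subunit members rose in BXPC3, with medians of 0.17 and 0.15 log2. Both that fell belong to the large subunit. Among members with a bacterial counterpart 24 of 44 rose, with a median of 0.19 log2. Among mitochondria-specific members 10 of 32 rose, with a median of 0.09 log2. No test of this difference between classes was made. Several smaller rises concern proteins with a known function, such as MRPL58, a peptidyl-tRNA hydrolase that rescues stalled ribosomes (0.23 ± 0.06 log2, adjusted p = 0.0111), and MRPS7 (0.20 ± 0.04 log2, adjusted p = 0.00331). MRPL44, an RNase III-like protein mutated in a cardiomyopathy, rose by 0.22 ± 0.06 log2 (adjusted p = 0.0174), a call lost without the first BXPC3 collagen library (0.15 log2, adjusted p = 0.154) and without the second BXPC3 7.5% GelMA library (adjusted p = 0.0503), with a range of 0.0132 to 0.154 over the alternatives. The call of MRPL58 was lost without the first BXPC3 collagen library (0.20 log2, adjusted p = 0.0678; range 0.00507 to 0.0678).

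In PANC1 members went in both directions, as all genes tested did, and the share of members that rose was near that of all genes. GelMA raised 22 (27.7% of all genes tested rose) and lowered 13 (27.4% of all genes fell), and 41 did not pass the limma test. The 35 calls, 46.1% of the members, stand beside 55.1% of all genes. When a change of at least 1.2-fold was also required, 21 remained, again without a share of all genes. The median difference was 0.08 log2, against -0.01 over all genes, and it became 0.00 without the second PANC1 collagen library. All 4 GelMA libraries lay above both collagen libraries for 24 members (29.9% of all genes) and below both for 13 (31.7% of all genes).

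MRPL41 again led. Its PANC1 values were 7.27 and 7.15 log2 RPKM in collagen, 7.94 and 7.96 in 5% GelMA and 8.11 and 7.98 in 7.5% GelMA. The difference of 0.79 ± 0.05 log2, 1.73-fold, passed at an adjusted p of 1.59e-06. MRPS12 rose by 0.53 ± 0.05 log2 (adjusted p = 1.14e-05), from 7.84 and 7.67 log2 RPKM in collagen to between 8.20 and 8.40 in GelMA.

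MRPL50, a mitochondria-specific large subunit protein, had 3.44 and 3.33 log2 RPKM in PANC1 in collagen and 3.83 to 4.0 in GelMA. It was 0.50 ± 0.07 log2 higher (adjusted p = 0.000198), without overlap. MRPS26 of the small subunit stepped up with gel percentage, from 6.75 and 6.61 log2 RPKM in collagen to 7.0 and 7.06 in 5% GelMA and 7.24 and 7.35 in 7.5% GelMA (0.48 ± 0.05 log2 for GelMA, adjusted p = 1.75e-05). MRPL57 rose by 0.49 ± 0.09 log2 (adjusted p = 0.000865), though its collagen libraries differed by more than most, 5.81 and 5.47 log2 RPKM, beside 6.0 to 6.31 in GelMA.

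Among the members that fell in PANC1, MRPL46 went from 1.52 and 1.73 log2 RPKM in collagen to 1.15 and 1.01 in 5% GelMA and 0.84 and 0.72 in 7.5% GelMA. Its difference was -0.69 ± 0.13 log2 (adjusted p = 0.00152). MRPL45, which holds the tunnel exit at the inner membrane, had 3.69 and 3.80 log2 RPKM in collagen and 3.03 to 3.30 in GelMA. It fell by 0.52 ± 0.08 log2 (adjusted p = 0.000403). MRPL23 fell by 0.51 ± 0.07 log2 (adjusted p = 0.000153), from 4.29 and 4.18 log2 RPKM to 3.52 and 3.65 in 5% GelMA and 3.90 and 3.85 in 7.5% GelMA.

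MRPS23 and MRPL24 fell in PANC1 after starting from high levels. MRPS23, a mitochondria-specific small subunit protein (chr17:57834781-57850056), measured 5.95 and 5.81 log2 RPKM in collagen and 5.32 to 5.47 in GelMA, a drop of -0.47 ± 0.05 log2 (adjusted p = 2.5e-05). MRPL24, with a bacterial counterpart in the large subunit (chr1:156737303-156741590), had 7.0 and 6.95 log2 RPKM in collagen and 6.51 to 6.59 in GelMA, at -0.43 ± 0.06 log2 (adjusted p = 0.000249). In both genes every GelMA library was below both collagen libraries. The stalk protein MRPL11 fell by 0.31 ± 0.05 log2 (adjusted p = 0.00037). Its neighbour in the stalk MRPL10 was lower by a smaller amount, -0.12 ± 0.05 log2 (adjusted p = 0.0438), a call lost in several alternatives, among them the fit without the second PANC1 collagen library (-0.08 log2, adjusted p = 0.275; range over the alternatives 0.035 to 0.275).

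**Figure D2:**
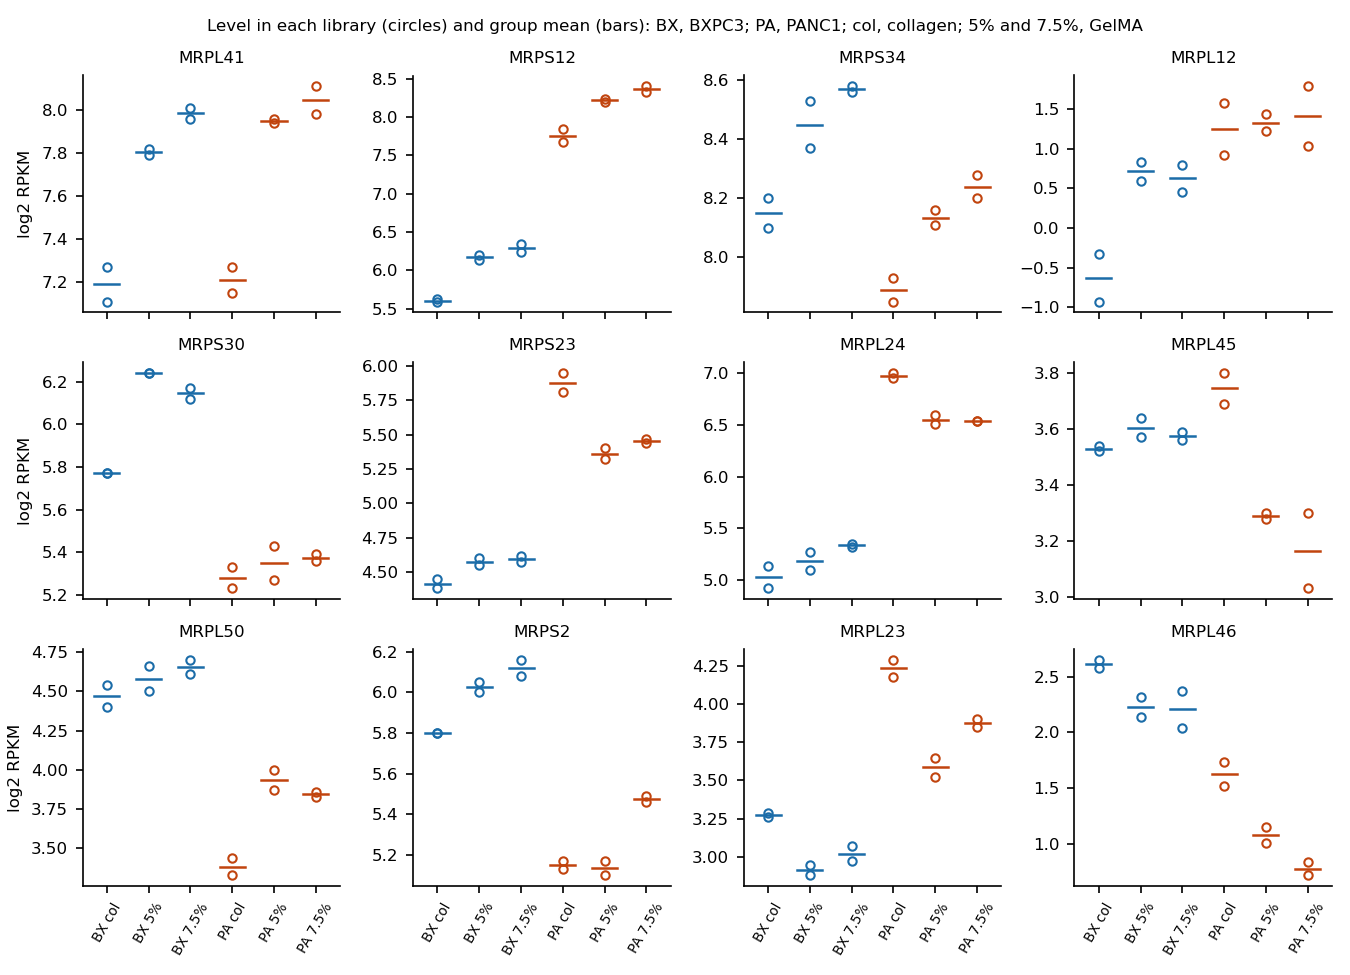
Level in log2 RPKM (vertical axis, a scale of its own in each panel) of 12 members in each library; circles are libraries and bars group means, for BXPC3 (BX, blue) and PANC1 (PA, orange) in collagen (col), 5% and 7.5% GelMA. MRPL41, MRPS12 and MRPS34 are higher in GelMA in both lines, MRPL23 and MRPL46 are lower in both, and MRPS23 and MRPL24 go in opposite directions.

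The lines were compared gene by gene. In both lines 13 members rose, namely MRPL4, MRPL15, MRPL34, MRPL36, MRPL41, MRPL44, MRPL49, MRPS2, MRPS12, MRPS16, MRPS18C, MRPS26 and MRPS34. MRPL23 and MRPL46 fell in both. In BXPC3 the calls of MRPL44, MRPS18C and MRPL46 were lost in some alternatives, and MRPL36 in PANC1 was near the threshold (limma, adjusted p = 0.0485). Another 6 members rose in BXPC3 and fell in PANC1: MRPL17, MRPL24, MRPL58, MRPS15, MRPS23 and MRPS27. The fall of MRPL58 in PANC1 (-0.18 ± 0.06 log2, adjusted p = 0.026) was lost without any 1 of 5 of the 6 PANC1 libraries, all but the second collagen library (range over the alternatives 0.0146 to 0.187). No member did the reverse. The other 55 were called in 1 line (29 members) or in neither (26 members). These counts across lines were made for the members alone, so no share of all genes stands beside them. Across the 76 members the BXPC3 and PANC1 effects correlated at a Pearson r of 0.45 (0.55 without MRPL12), beside 0.25 across all 15794 genes, a description across genes that are not independent.

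The difference between the lines in the GelMA effect, PANC1 minus BXPC3, passed the limma test for 21 members. Among them 5 were higher (18.5% of all genes tested were) and 16 lower (20.6% of all genes), beside 39.1% of all genes in either direction. All 6 members that moved in opposite directions were among the 16. For MRPL24 the difference was -0.66 ± 0.09 log2 (adjusted p = 0.000288), for MRPS23 -0.64 ± 0.07 log2 (adjusted p = 7.73e-05) and for MRPS27, a pentatricopeptide repeat protein of the small subunit, -0.46 ± 0.07 log2 (adjusted p = 0.000473). MRPS27 measured 4.62 and 4.53 log2 RPKM in BXPC3 in collagen and 4.71 to 4.86 in GelMA. In PANC1 the same gene had 5.86 and 5.84 log2 RPKM in collagen and 5.57 to 5.64 in GelMA. Its rise in BXPC3 was not called without the second BXPC3 collagen library (0.18 log2, adjusted p = 0.0581; range over the alternatives 0.004 to 0.0581).

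MRPS21, a small subunit protein with a bacterial counterpart, had the largest positive difference, 0.39 ± 0.09 log2 (adjusted p = 0.00544). It had 4.77 and 4.84 log2 RPKM in BXPC3 in collagen and 4.70 to 4.85 in GelMA, so these groups overlapped. In PANC1 its values were 5.24 and 5.01 log2 RPKM in collagen and 5.38 to 5.53 in GelMA. For MRPL12 the difference was -1.19 ± 0.39 log2 (adjusted p = 0.0348), with PANC1 at 0.92 and 1.58 log2 RPKM in collagen and 1.03 to 1.79 in GelMA. This call was lost on the scale log2(RPKM + 1) (-0.57, adjusted p = 0.0699) and without any 1 of 6 libraries, among them the first BXPC3 and the second PANC1 collagen library (adjusted p = 0.133 and 0.15; range over the alternatives 0.0177 to 0.15).

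**Figure D3:**
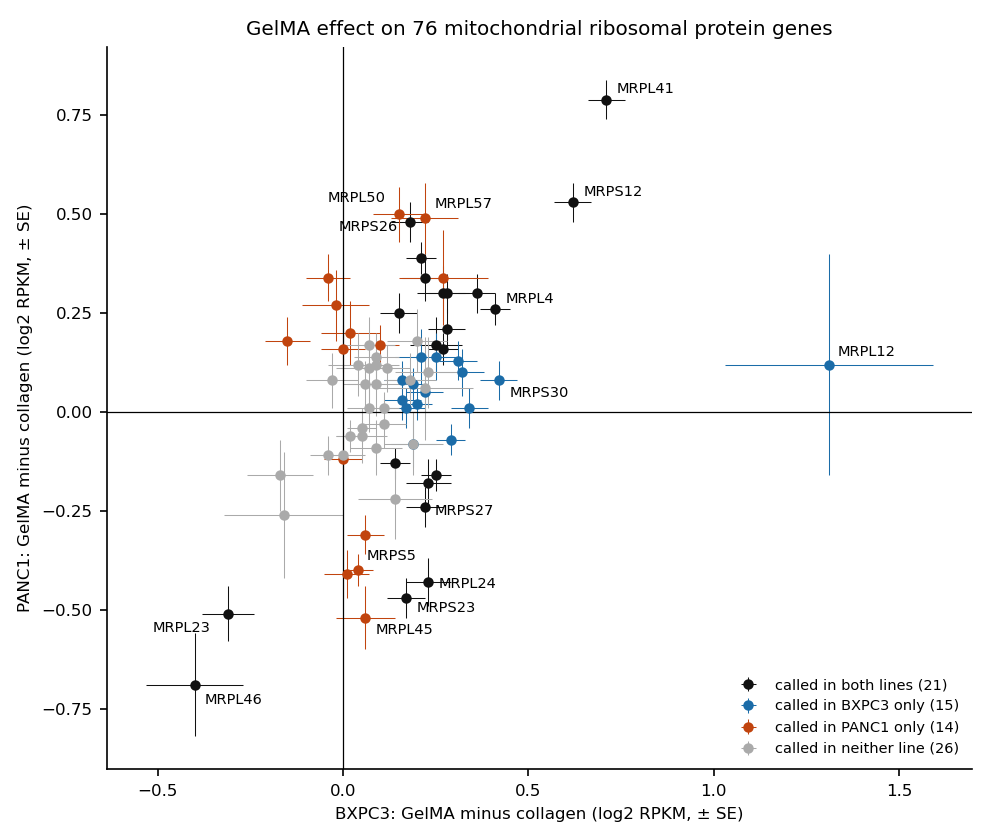
GelMA minus collagen in BXPC3 (horizontal axis) and in PANC1 (vertical axis) for the 76 members, in log2 RPKM with SE bars; black points were called in both lines, blue in BXPC3 alone, orange in PANC1 alone and grey in neither. MRPL41 and MRPS12 stand apart at the upper right, and 65 of 76 points lie to the right of 0 while 50 lie above it.

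Gel percentage was the weaker contrast. In BXPC3, 0 members were called between 7.5% and 5% GelMA by limma (0.0823% of all genes tested, of which 0.0443% higher and 0.038% lower). The unadjusted p was under 0.05 for 3 of 76 members, beside 1493 of the 15794 genes tested. Differences there ran from -0.21 to 0.19 log2. In PANC1, 14 members were higher in 7.5% than in 5% GelMA (9.16% of all genes) and 0 were lower (9.56% of all genes), beside 18.7% of all genes in either direction. The median was 0.10 log2, against 0.01 over all genes, and 62 of 76 members had a positive difference. Fewer members were called without either 5% library or either 7.5% library of PANC1, and the share of all genes in those fits is not given.

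MRPS2, the relative of a bacterial protein of the small subunit body (chr9:135499984-135504673), showed this best. In PANC1 it measured 5.17 and 5.13 log2 RPKM in collagen, 5.17 and 5.10 in 5% GelMA and 5.46 and 5.49 in 7.5% GelMA. Both 7.5% libraries stood above the other 4, by 0.35 ± 0.04 log2 over 5% (adjusted p = 0.000571). In BXPC3 the gene rose in both gels, with 5.80 log2 RPKM in both collagen libraries, 6.0 and 6.05 in 5% GelMA and 6.08 and 6.16 in 7.5% GelMA.

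MRPS2 was also the 1 member whose percentage effect differed between the lines, by 0.25 ± 0.06 log2 (adjusted p = 0.0324), where 8.97% of all genes tested were called, 4.01% higher and 4.96% lower. The unadjusted p was under 0.05 for 15 of 76 members, beside 3889 of the 15794 genes tested. This single call was lost without any 1 of 7 of the 8 GelMA libraries (all but the second 7.5% library of BXPC3), at adjusted p from 0.0555 to 0.125, and over all alternatives its adjusted p ran from 0.0301 to 0.125.

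MRPS18C rose by 0.32 ± 0.06 log2 from 5% to 7.5% GelMA in PANC1 (adjusted p = 0.00655). Its 5% libraries, 4.17 and 4.19 log2 RPKM, were near the collagen values of 4.13 and 4.06, and the 7.5% libraries had 4.53 and 4.47. The call was lost without the first 7.5% library of PANC1 (adjusted p = 0.0524; range over the alternatives 0.00471 to 0.0524). MRPS22 of the small subunit, mutated in a mitochondrial disease, was lowest in 5% GelMA, with 4.98 and 5.10 log2 RPKM beside 5.31 and 5.30 in 7.5% GelMA (0.26 ± 0.05 log2, adjusted p = 0.00811) and 5.33 and 5.23 in collagen. Its call was lost without the first 5% library of PANC1 (adjusted p = 0.0729; range 0.00667 to 0.0729). MRPL33 was 0.34 ± 0.08 log2 higher in 7.5% GelMA (adjusted p = 0.0144), MRPL21 0.30 ± 0.07 (adjusted p = 0.0173) and the L1 stalk protein MRPL1 0.35 ± 0.10 (adjusted p = 0.0422). The calls of these 3 were lost, among other fits, without the first library of either gel percentage of PANC1, with adjusted p of 0.0734 to 0.193 in those fits and lowest values over the alternatives of 0.0092, 0.00885 and 0.0205.

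Against collagen, each percentage was also fitted alone, with the same collagen libraries on the other side. In BXPC3, 23 members rose and 1 fell in 5% GelMA (16.1% and 13.7% of all genes tested, 29.9% in either direction). In 7.5% GelMA of BXPC3, 30 rose and 1 fell (16.1% and 13.7% of all genes, 29.8% in either direction). In PANC1, 15 rose and 17 fell in 5% GelMA (23.0% and 23.2% of all genes, 46.2% in either direction), while 28 rose and 10 fell in 7.5% GelMA (27.2% and 26.6% of all genes, 53.8% in either direction). The PANC1 medians were 0.03 log2 in 5% and 0.13 log2 in 7.5% GelMA. Calls for 5% GelMA in PANC1 were fewer without its second 5% library. Those for 7.5% GelMA in BXPC3 were fewer without its second collagen library or either 7.5% library. The share of all genes in those fits is not given.

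**Figure D4:**
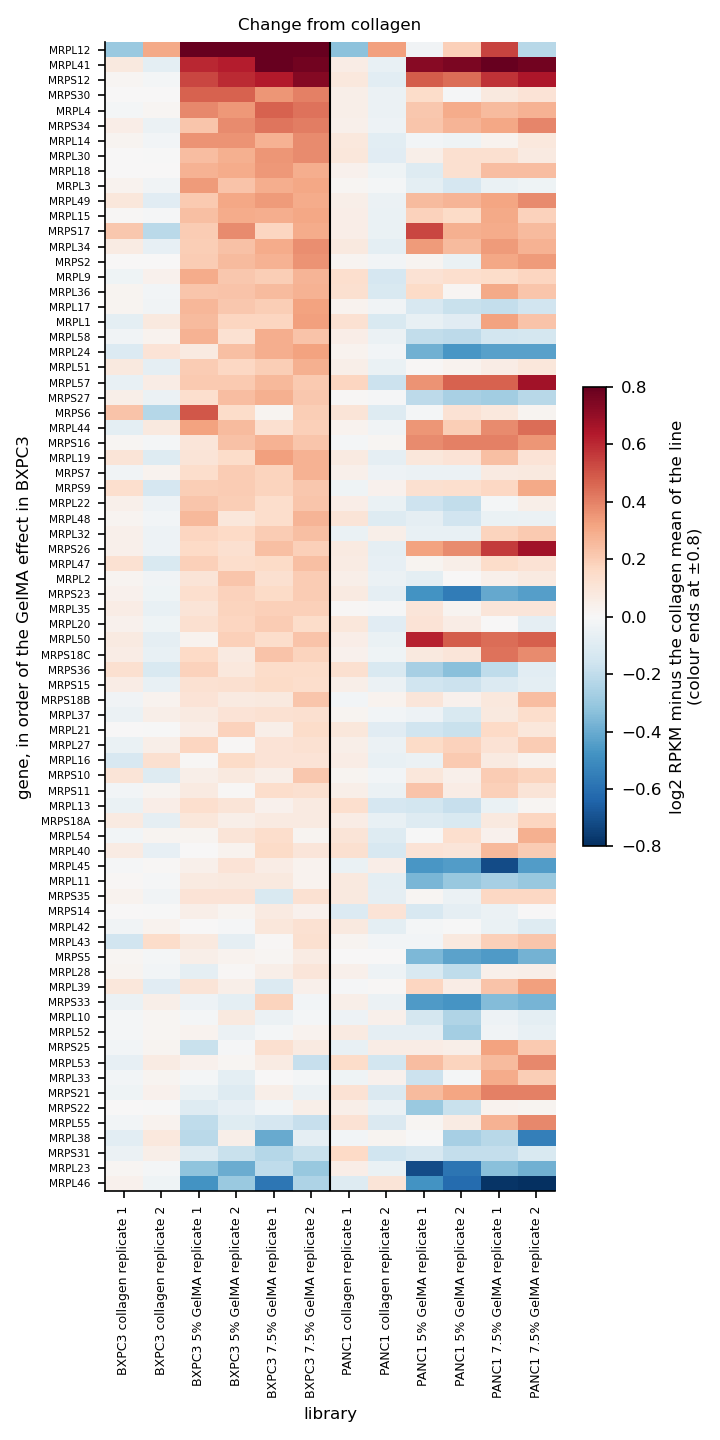
Change of each member (rows, in order of the GelMA effect in BXPC3) in each library (columns), as log2 RPKM minus the mean of the 2 collagen libraries of the same line; red is higher, blue lower, and the colour ends at 0.8 in each direction. BXPC3 (left of the black line) is mostly red in the 4 GelMA libraries, while PANC1 (right) shows 22 risen and 13 fallen members.

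The lines differed in more members than the gels did. In collagen, 48 members were higher in PANC1 than in BXPC3 (47.5% of all genes tested) and 12 lower (38.7% of all genes), so 60 were called beside 86.2% of all genes. In GelMA 49 were higher (48.6% of all genes) and 16 lower (41.3% of all genes), 65 calls beside 89.9% of all genes. The median difference of the members was 0.39 log2 in collagen and 0.33 in GelMA, against 0.13 and 0.11 over all genes. Members with a bacterial counterpart were higher in PANC1 in 35 of 44 cases in collagen and lower in 3, with a median of 0.54 log2. Mitochondria-specific members were higher in 13 and lower in 9 of 32, with a median of 0.01 log2, and the difference between the classes was not tested.

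MRPS12 differed most, at 2.15 ± 0.06 log2 in collagen, 4.44-fold (adjusted p = 1.22e-10). Then came MRPL24 with 1.94 ± 0.07 log2 (adjusted p = 1.39e-09), MRPL17 with 1.88 ± 0.05 log2 (adjusted p = 6.09e-11), MRPL12 with 1.88 ± 0.32 log2 (adjusted p = 0.000236) and MRPS23 with 1.46 ± 0.06 log2 (adjusted p = 1.92e-09). On the scale log2(RPKM + 1) the MRPL12 difference was 1.04. MRPL17 measured 6.47 and 6.42 log2 RPKM in BXPC3 in collagen and 8.36 and 8.30 in PANC1, and its line difference stayed at 1.47 ± 0.03 log2 in GelMA (adjusted p = 1.17e-11). MRPL24 had 4.92 and 5.14 log2 RPKM in BXPC3 in collagen, and its line difference in GelMA was 1.28 ± 0.05 log2 (adjusted p = 1.29e-09).

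Lower in PANC1 in collagen were MRPL50 (-1.08 ± 0.08 log2, adjusted p = 3.84e-07), MRPL46 (-0.99 ± 0.16 log2, adjusted p = 0.00013) and MRPS31 (-0.93 ± 0.10 log2, adjusted p = 9.5e-06). MRPS31 of the small subunit had 3.89 and 3.98 log2 RPKM in BXPC3 and 3.16 and 2.84 in PANC1. MRPS2 (-0.65 ± 0.04 log2, adjusted p = 1.39e-07) and MRPL52 (-0.60 ± 0.07 log2, adjusted p = 1.02e-05) followed. MRPS30 was lower in PANC1 by 0.49 log2 in collagen and by 0.83 log2 in GelMA, written as -0.49 ± 0.06 (adjusted p = 1.1e-05) and -0.83 ± 0.04 (adjusted p = 5.42e-09).

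The surroundings of each gene on its chromosome were also measured. For each member, the median line difference was computed over all tested genes lying at least partly within 1 Mb on either side. The 47 neighbours of MRPS12 on chromosome 19 had a median of 2.47 log2 in collagen, with 39 higher and 4 lower in PANC1. The 24 neighbours of MRPL17 on chromosome 11 had a median of 1.44 log2, the 70 of MRPL12 on chromosome 17 a median of 1.03 log2, and the 5 of MRPL50 on chromosome 9 a median of -1.01 log2. MRPL24 and MRPS23 stood above theirs, whose medians were 0.33 log2 (41 genes) and 0.31 log2 (20 genes). MRPL40 on chromosome 22, a central protuberance protein, was 1.03 ± 0.08 log2 higher in PANC1 (adjusted p = 3.44e-07), beside a neighbour median of -0.03 log2 (32 genes). Over the 74 members with at least 5 neighbours, the member's difference and the neighbour median correlated at 0.61 in collagen and 0.63 in GelMA, as a description, since neighbours of some members overlap.

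**Figure D5:**
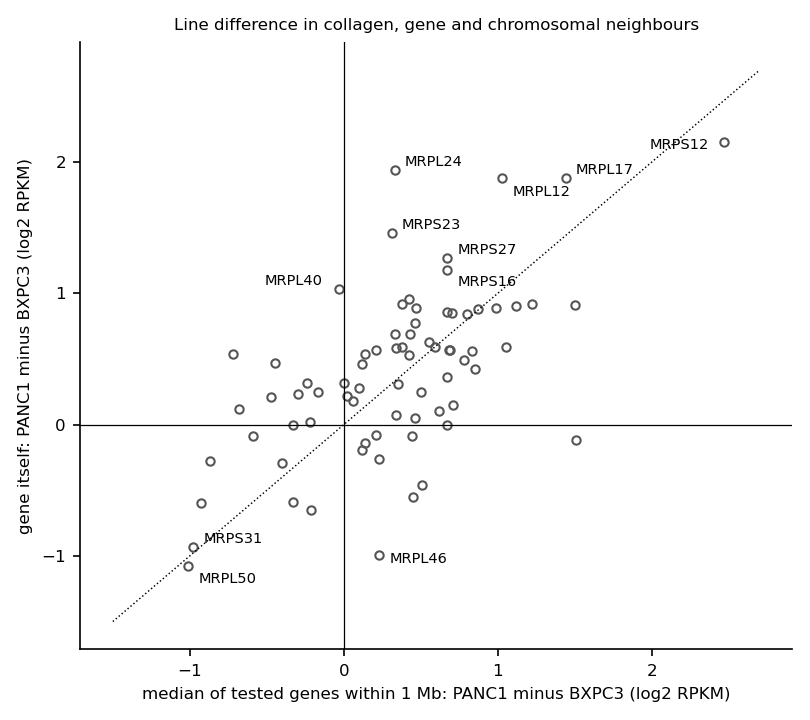
Line difference in collagen (PANC1 minus BXPC3, log2 RPKM) of each of 74 members (vertical axis) against the median of the tested genes within 1 Mb (horizontal axis); the dotted line marks equality. MRPL50 and MRPS31 lie near the line, MRPL24, MRPS23 and MRPL40 lie well above it, and MRPS12 lies below it.

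Genes that begin close together in opposite directions were compared as well. Pairs of a member and a divergent partner whose starts lie within 1000 bases of each other were taken, and in 26 the partner was tested. SARS2, the partner of MRPS12, and PRR23A, that of MRPS22, were not among the genes compared. Across these pairs the GelMA effects correlated at 0.05 in BXPC3 and 0.35 in PANC1, and the line differences at 0.65 in collagen and 0.62 in GelMA, as descriptions. MRPL46 and MRPS11, which start 34 bases apart, are both members. MRPS11 differed by 0.09 log2 in BXPC3 (adjusted p = 0.272) and 0.14 in PANC1 (adjusted p = 0.0546), where MRPL46 differed by -0.40 and -0.69. MRPS34 and EME2, a gene of DNA repair, start 52 bases apart, and EME2 rose as well, by 0.35 log2 in BXPC3 (adjusted p = 0.000438) and 0.22 in PANC1 (adjusted p = 0.0028).

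The MRPS18 paralogues are a family of 3 in which each protein occupies a different site, MRPS18B and MRPS18C in the small subunit and MRPS18A in the large one. Genes on the opposite strand cover 40.2% of the exon bases of MRPS18C and 47.0% of those of MRPS18A. The strand setting of the counts is not given. MRPS18C rose in GelMA by 0.15 ± 0.05 log2 in BXPC3 (adjusted p = 0.0479) and 0.25 ± 0.05 log2 in PANC1 (adjusted p = 0.00326). The BXPC3 call was lost without the second BXPC3 collagen library (0.10 log2, adjusted p = 0.316) and in most other alternatives (range 0.0348 to 0.316). MRPS18A and MRPS18B did not pass for GelMA against collagen in either line. MRPS18A was higher in 7.5% than in 5% GelMA in PANC1 (0.24 ± 0.07 log2, limma, adjusted p = 0.0319), a call lost in some alternatives. MRPS18B was 0.88 ± 0.07 log2 higher in PANC1 than in BXPC3 in collagen (adjusted p = 3.89e-07), while MRPS18A and MRPS18C did not pass that test.

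The rest of the pathway was read from 7 lists, whose counts for GelMA against collagen stand beside 19.4% higher and 16.7% lower of all genes tested in BXPC3 and 27.7% and 27.4% in PANC1. Of 5 ribosomal subunits with other names, 3 rose and 1 fell in BXPC3, and 1 rose and 2 fell in PANC1. AURKAIP1 rose in both lines (0.47 ± 0.04 log2, adjusted p = 4.2e-05, and 0.29 ± 0.04 log2, adjusted p = 0.000181), and DAP3, the GTP-binding protein of the small subunit, rose in BXPC3 (0.20 ± 0.04 log2, adjusted p = 0.00187) and fell in PANC1 (-0.29 ± 0.04 log2, adjusted p = 7.77e-05). Of 27 tested factors of ribosome assembly, 11 rose and 2 fell in BXPC3, and 12 rose and 7 fell in PANC1, with medians of 0.15 and 0.01 log2. Among them MPV17L2 rose by 0.65 ± 0.10 log2 in BXPC3 (adjusted p = 0.000778) and the helicase DHX30 by 0.49 ± 0.03 log2 in PANC1 (adjusted p = 1.21e-06).

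Of 16 translation factors, 8 rose and 1 fell in BXPC3, and 5 rose and 4 fell in PANC1. GFM1, the elongation factor that moves the ribosome along, rose by 0.40 ± 0.04 log2 in BXPC3 (adjusted p = 0.000118). Of 10 genes of mitochondrial DNA upkeep and transcription, 3 rose in BXPC3 and 0 fell, and 4 rose and 3 fell in PANC1. Of 20 tested import genes, 10 rose and 1 fell in BXPC3, and 6 rose and 7 fell in PANC1, the latter near the shares of all genes. Of the 15 mitochondrially encoded ribosomal and messenger RNAs, 1 rose and 2 fell in BXPC3, and 8 rose and 0 fell in PANC1. MT-ATP8 had the largest rise of these in PANC1, 1.39 ± 0.14 log2 (adjusted p = 2.39e-05). Quantile normalization fixes the values of the top ranks, where most of these RNAs lie, and MT-CO1 had 13.74 log2 RPKM in all 12 libraries, so the counts of this list do not show how its RNAs changed. Some of these genes overlap, and the sources used here do not say how their reads were counted.

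Of 8 tested regulators of mitochondrial biogenesis, 4 rose in BXPC3 and 0 fell, and 1 rose and 3 fell in PANC1, where 4 of 8 called is near the 55.1% of all genes. MYC, a transcription factor of growth, had 6.66 and 6.70 log2 RPKM in BXPC3 in collagen and 6.94 to 7.05 in GelMA, a rise of 0.32 ± 0.03 log2 (adjusted p = 6.27e-05). In PANC1 it went the other way, from 6.76 and 6.74 log2 RPKM to between 5.91 and 6.10, at -0.74 ± 0.03 log2 (adjusted p = 5.25e-08). GABPB1, a subunit of the GABP factor named above, rose in BXPC3 (0.23 ± 0.06 log2, adjusted p = 0.017) and fell in PANC1 (-0.42 ± 0.06 log2, adjusted p = 0.000263). Not all regulators did so. ESRRA was higher in GelMA in BXPC3, at 7.05 to 7.09 log2 RPKM beside 6.89 and 6.82 in collagen. In PANC1 it had 5.91 to 5.98 beside 5.68 and 5.58. GABPA had 4.41 to 4.64 in GelMA beside 4.59 and 4.5 in BXPC3, and 4.72 to 4.74 beside 4.71 and 4.69 in PANC1. YY1 had 6.76 to 6.83 beside 6.85 and 6.86 in BXPC3, and 6.17 to 6.29 beside 6.43 and 6.44 in PANC1. Whether these changes bear on the members was not tested.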

How the data were processed

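Poly-A RNA from 2 lines in 3 gels was sequenced, and the authors deposited log2 RPKM for 16299 Ensembl genes in 12 libraries. HISAT2 2.1.0, HTSeq and GRCh38 (hg38) are named, per the submitters' processing notes, and the sources used here do not give the strand setting, annotation, gene lengths or offset. Leaving aside the lowest 2541 ranks, the sorted values of the libraries matched to within 0.05 log2 (13758 genes), so the values were taken as quantile normalized, which removes a change shared by most genes. Depth is unknown, and no interval for counting error could be given.

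Symbols, positions and exon overlaps came from a gene name table (16250 IDs) and GENCODE 29, and promoter windows from RefSeq (GRCh38.p14). Members without a window were MRPL2, MRPL10, MRPL13, MRPL15, MRPL21, MRPL23, MRPL35 and MRPS36. Of all genes, 15794 reached 1 RPKM in 2 or more libraries (505 did not), and these were fitted with limma 3.58.1 in R 4.3.3 as group means over all 12 libraries with a mean-variance trend, after a check on simulated data. The fit had 6 residual and a median of 3.89 prior degrees of freedom. P-values were Benjamini-Hochberg adjusted over all genes tested in each of 12 comparisons, with calls at adjusted p under 0.05. Errors are SE of the fit unless stated. Line neighbours were tested genes within 1 Mb.

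Named members were the 5 highest and 5 lowest called in each comparison, the 5 highest and lowest levels, and members of known place or role; others were named after their values were seen, as were the motifs. The 7 pathway lists were subunits named otherwise, assembly, translation factors, mitochondrial DNA and transcription, mitochondrial RNA, import and biogenesis regulators. Members and lists were chosen with earlier results of these data known.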

Additional observations from a re-analysis of the deposited data

Results flagged for a closer look

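For 14 named members the GelMA effect differed between the lines in limma (PANC1 minus BXPC3, Benjamini-Hochberg adjusted over all genes tested). It was lower in PANC1 by 1.19 log2 for MRPL12 (-1.19), -0.66 for MRPL24, -0.64 for MRPS23, -0.57 for MRPL45, -0.46 for MRPS27, -0.41 for MRPL58, -0.37 for MRPL11, -0.34 for MRPS30 and -0.18 for MRPS7. It was higher in PANC1 by 0.18 log2 for MRPS16, 0.30 for MRPS26, 0.34 for MRPL55, 0.35 for MRPL50 and 0.39 for MRPS21. The calls of MRPL12, MRPL50, MRPS7 and MRPS16 were each lost in at least 1 fit without a single library (highest adjusted p of 0.15, 0.076, 0.0991 and 0.0813).

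The effect of gel percentage (7.5% against 5% GelMA) differed between the lines for MRPS2, by 0.25 log2, a call that most fits with 1 library left out did not keep.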

How the results depend on the processing

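No direction was reversed in any alternative. Of 1226 values of named members under alternatives that keep all libraries, 1166 kept their side of the threshold and 60 lost a call. Of 1848 with 1 library left out, 1704 kept it and 144 lost a call. Requiring a change of at least 1.2-fold left 16 calls for GelMA in BXPC3, 21 for GelMA in PANC1, 8 for 7.5% against 5% GelMA in PANC1, 0 for the percentage effect between lines, 13 and 17 for 5% and 7.5% GelMA in BXPC3 and 19 for 5% GelMA in PANC1. No share of all genes is given for this rule. Without the mean-variance trend, 9 members were called for 7.5% against 5% GelMA in PANC1 and 0 for the percentage effect between lines. Fits of only the compared libraries called 2 for the latter and 14 for 5% GelMA in BXPC3. No share of all genes is given for these fits, for those with 1 library left out or for the replicate block below. The causes were not tested.

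Leaving out 1 library gave 22 to 37 calls for GelMA in BXPC3, 28 to 38 in PANC1, 0 to 0 and 5 to 16 for 7.5% against 5% GelMA in BXPC3 and PANC1, 19 to 26 for the line difference in the GelMA effect, 0 to 2 for that in the percentage effect, and 59 to 62 and 61 to 66 for PANC1 against BXPC3 in collagen and GelMA. For 5% and 7.5% GelMA alone the ranges were 16 to 30 and 19 to 33 in BXPC3 and 21 to 32 and 31 to 40 in PANC1.

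Same-numbered replicates of different groups did not deviate together (correlations of -0.048 to 0.077), so the numbers do not pair. With the replicate number as a block, 35 members were called for GelMA in BXPC3, 35 in PANC1, 0 and 13 for 7.5% against 5% GelMA, 21 and 1 for the line differences, and 62 and 65 between lines. The 1.2-fold rule also ended the calls of named members with smaller changes. Depth is unknown, so weak levels such as those of MRPL12 limit what fold changes mean.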
